A study of Homo sapiens with 4 samples.

Results

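TBX3 sites in first introns outside annotated repeats were examined in 501mel, an established human melanoma cell line. The labels name no treatment or deletion in any sample. There were 2 samples of chromatin precipitated with an antibody to the HA peptide (12CA5) against TBX3-3xHA, TBX3 with an HA tag, and 2 input samples, which were not analysed here. All are of this 1 line. The labels give neither how the tagged protein was expressed nor whether the replicates were separate cultures, so the spread between replicates may be technical. Each ChIP replicate was a list of peak summits, each with the authors' score, used only to rank and describe peaks within a list, and an annotation. With 1 condition, no treatment or genotype was compared. A region belonged to the set when the replicate 1 summit was annotated to an intron numbered 1, when its detailed annotation named no repeat, and when the nearest replicate 2 summit lay within 200 bp and had it as its own nearest summit. This gave 2053 regions, 9.04% of the 22702 regions shared by the replicates, from lists of 32479 summits in replicate 1 and 40494 in replicate 2.

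TBX3 is a T-box transcription factor, best known as a repressor in limb, heart and mammary development, and in melanoma for repression of E-cadherin and of cell cycle inhibitors. T-box proteins contact a short DNA motif, the T-box element. First introns are often the longest introns of a gene and carry enhancers and alternative start sites more often than later ones, and intron numbering depends on the transcript: a first intron of a short isoform can lie deep inside a long gene.

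A few of these sites lay in front of a start site that the deposited annotation did not use as the nearest start. Such a position can be seen only against other starts, since the deposited annotation calls summits just upstream of its own nearest start promoter, not intron. Against the RefSeq start table of GRCh38.p14, which holds 34961 start windows of 27195 genes, 20 regions were within 1000 bp upstream of a start (0.974%), 11 of them at a start of the host gene itself and 9 at a start of another gene. The table is not complete. No such share is given for later-intron or intergenic regions, so this position is not shown to be particular to first introns. The region with the highest scores of the 20 was in SOX6, a SOX family transcription factor of neural crest derivatives. Its summit was 46033 bp from the start in the deposited annotation, but 288 bp upstream of another SOX6 start in RefSeq. The window of 250 bases before and 50 after a RefSeq start held the replicate 1 summit in 12 regions, and 6 of these, chosen after their values were seen and shown to place each summit next to the start and to the motifs searched, had these sequences (RefSeq, GRCh38.p14, 5′ to 3′ on the strand of the gene whose start follows, replicate 1 summit at base 61 and up to 60 bases each side, cut at the start where it is nearer; capitals mark a motif on either strand, searched as the T-box element AGGTGTGA, its inner letters GGTGTG, the MITF M-box core CATGTG, the E-box CACGTG, the AP-1 motif TGANTCA, and for SOX factors ACAAAG and its variant ACAATG):
PDK1, antisense start of PDK1-AS1, chr2:172556465-172556541, minus strand: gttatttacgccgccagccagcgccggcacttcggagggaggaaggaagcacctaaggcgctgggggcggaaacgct
SPCS3, antisense start of SPCS3-AS1, chr4:176320529-176320649, minus strand: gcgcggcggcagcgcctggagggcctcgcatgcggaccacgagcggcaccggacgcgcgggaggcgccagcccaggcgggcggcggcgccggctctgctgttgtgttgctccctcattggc
AFF1, start of C4orf36, chr4:86936255-86936375, minus strand: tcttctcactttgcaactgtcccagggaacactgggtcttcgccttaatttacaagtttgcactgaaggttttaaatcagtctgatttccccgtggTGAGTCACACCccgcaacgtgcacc
FAM78B, start of FAM78B-AS1, chr1:166080649-166080735, plus strand: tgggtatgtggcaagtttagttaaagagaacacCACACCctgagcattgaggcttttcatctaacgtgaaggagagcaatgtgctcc
SLC4A4, another SLC4A4 start, chr4:71235950-71236059, plus strand: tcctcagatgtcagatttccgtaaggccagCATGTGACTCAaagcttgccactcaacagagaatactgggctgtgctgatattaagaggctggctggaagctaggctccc
SETBP1, another SETBP1 start, chr18:44700792-44700874, plus strand: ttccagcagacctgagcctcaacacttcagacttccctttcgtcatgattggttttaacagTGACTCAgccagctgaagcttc

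These stretches were of different kinds, and include every stretch of the 12 that held a motif. The stretches not shown, in BCOR, QPCT, ENTPD1, SNX25, CSRP2 and CNKSR3, held none. Those of PDK1, a kinase that shuts down pyruvate dehydrogenase, and of SPCS3, a subunit of the signal peptidase, lay in annotated CpG islands. They had a GC content of 64.9% and 77.7%, and held none of the motifs in the bases shown. Elsewhere in their windows were CACGTG for PDK1 and ACAAAG for SPCS3. The PDK1 summits scored 98.6 in replicate 1 and 127.1 in replicate 2, and lay 17 and 14 bp before the PDK1-AS1 start. The SPCS3 summits scored 40.2 and 90.4. In AFF1, a subunit of the super elongation complex, a motif bound by AP-1 factors (TGANTCA) and the inner letters of the T-box element (GGTGTG) overlapped at bases 97 to 107, and the replicate 2 summit fell among them at base 101, while the replicate 1 summit did not. In FAM78B the T-box letters stood at bases 34 to 39, upstream of the replicate 1 summit, while the replicate 2 summit lay 26 bp past the start, at base 114 and outside the stretch shown. In SLC4A4, a sodium bicarbonate transporter, an M-box core (CATGTG, bound by MITF) overlapped the AP-1 motif at bases 31 to 41, between the summits of the replicates at bases 23 and 61. In SETBP1 the AP-1 motif began at base 62, next to the summits at bases 61 and 60. The last 2 of these sites were weak, with scores of 10.8 and 18.3 for SLC4A4 and of 7.12 and 10.6 for SETBP1. Of the 12 windows, 6 held GGTGTG (50% against 16.8% of all 34961 windows), 3 held TGANTCA (25% against 7.68%), 3 held CATGTG (25% against 11.1%), and none held the full AGGTGTGA, which 0.984% of all windows had. CACGTG was in 2 (16.7% against 7.27%), ACAAAG in 4 (33.3% against 16.1%) and ACAATG in 1 (8.33% against 10.7%). Both strands of the whole window of 300 bases were searched, and GGTGTG is part of AGGTGTGA. A match counted here can therefore lie away from the summit. Of the 6 windows with GGTGTG, only those of AFF1 and FAM78B had it in the stretch around the summit, cut as above. With 12 windows these shares are descriptions, and a match is not a bound site.

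The strongest first-intron sites were in genes of unrelated function. Among the first-intron regions of the set, CTNND1 had the highest score in both replicates, though summits outside the set scored higher in each list. CTNND1 encodes p120-catenin, the protein that keeps cadherins at the cell surface. Its summits were on chromosome 11 at 57778852 and 57778853 (hg38, as for all coordinates here). They lay in intron 1 of 16, 17090 bp downstream of the start, and scored 671.5 in replicate 1 and 730.9 in replicate 2. ZFYVE9, also called SARA, which presents SMAD proteins to the TGF-beta receptor, had summits on chromosome 1 at 52160533 and 52160536 in intron 1 of 18, with scores of 580.9 and 681.8. EPAS1 encodes the hypoxia-inducible factor HIF-2 alpha. Its summits on chromosome 2 at 46330547 and 46330558 scored 495.5 and 614.5, 33145 bp into the gene. PRKAR1A, the regulatory subunit of protein kinase A that restrains cAMP signalling, had summits on chromosome 17 at 68474482 and 68474499 with scores of 463.5 and 537.3. The nearest start there was that of WIPI1, an autophagy gene, 16958 bp away, while the outermost PRKAR1A start was 60859 bp away. An assignment by nearest start would have given this site to WIPI1. Which gene the site acts on, if any, was not tested. The SOX6 site on chromosome 11 had summits at 16356834 and 16356826 and scores of 414.8 and 604.7.

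The other 5 of the 10 regions with the lowest rank sums were in NUDT2, a nucleotide hydrolase, in COL21A1, a collagen, in FBXO32, a muscle-atrophy ubiquitin ligase, and in the non-coding genes CHN2-AS1 and LINC02328. NUDT2 scored 475.6 in replicate 1 and 647.3 in replicate 2, COL21A1 scored 454.9 and 632.0, and FBXO32 scored 411.3 and 586.3. CHN2-AS1 scored 542.5 and 673.3 at 433 bp from the nearest start, and LINC02328 scored 413.0 and 575.6 at 87857 bp. None of the 10 lay in a CpG island.

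**Figure D1:**
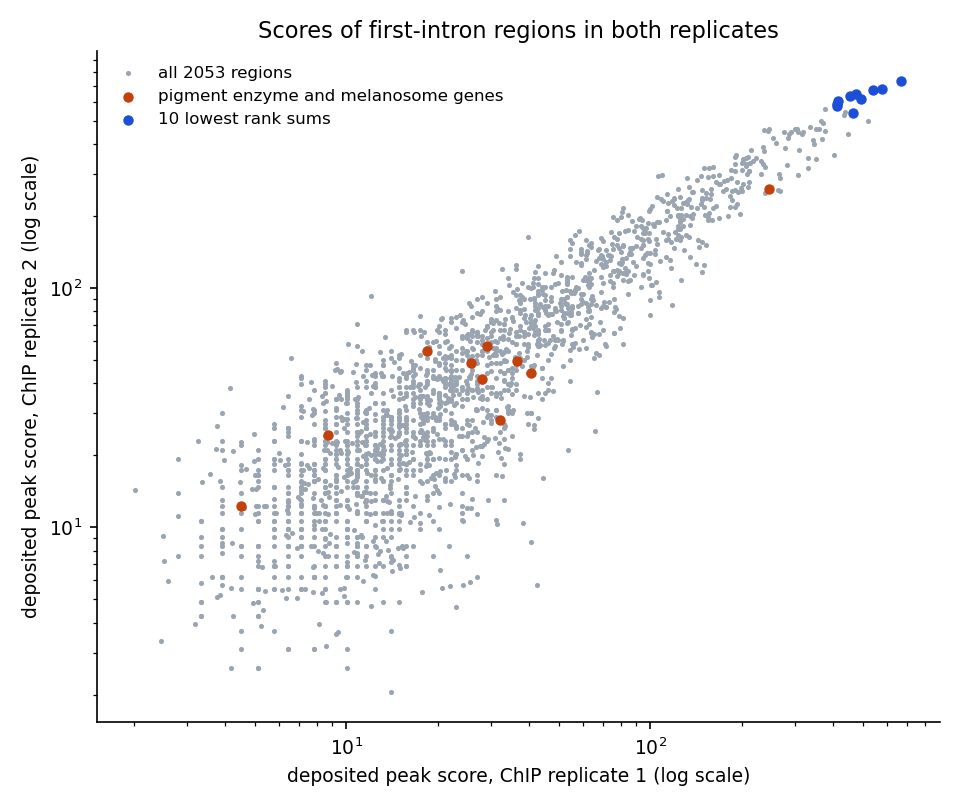
Deposited peak scores of the 2053 first-intron regions in ChIP replicate 1 (x axis) and ChIP replicate 2 (y axis), both on log scales, 1 point a region. The 10 regions with the lowest rank sums (blue) score between 411.3 and 671.5 in replicate 1, and of the regions in pigment enzyme and melanosome genes (orange) only that of RAB27A exceeds 100 in both.

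Across all members the scores spread over more than 2 orders of magnitude. In replicate 1 they ran from 2.02 to 671.5 with a median of 20.4 and quartiles of 10.8 and 46.1, and in replicate 2 from 2.05 to 730.9 with a median of 34.3 and quartiles of 16.6 and 77.3. Spearman's rank correlation between the replicates was 0.856 across the 2053 regions, given as a description, since the regions share the same pair of libraries. In all, 314 regions (15.3%) were in the top 10% of both lists. Members sat higher in their lists than the average peak in both replicates: their median percentile was 65.4 in replicate 1 and 74.6 in replicate 2. That of all first-intron summits outside repeats, with or without a partner, was 53.4 and 55.2, and that of the 4359 shared non-repeat regions in later introns was 64.9 and 73.7. The summits of a pair were 28 bp apart in the median, 24 pairs had the same base and 167 were more than 100 bp apart. For 2047 regions both lists named a first intron of one and the same transcript. In 83 regions (4.04%) the replicate 2 summit, unlike that of replicate 1, fell in an annotated repeat. The members nearest to the pairing limit were in LHFPL3 with 198 bp between summits (scores of 7.12 and 20.2) and in RORA with 197 bp (5.12 and 4.28). Just outside stood pairs in GMDS at 204 bp (5.12 and 4.28) and EFNA5 at 208 bp (9.28 and 7.62).

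Recovery in the other replicate is given for all first-intron and all later-intron summits outside repeats, before the demand for a partner was applied. In replicate 1, 2053 of 2752 first-intron summits had a partner (74.6%, 95% Wilson interval 72.9% to 76.2%) against 4359 of 6066 later-intron summits (71.9%, 70.7% to 73.0%). The odds ratio was 1.15 (95% interval 1.04 to 1.27). In replicate 2 the shares were 57.7% (2062 of 3572, 56.1% to 59.3%) and 57.5% (4383 of 7629, 56.3% to 58.6%). Their odds ratio, 1.01, had an interval of 0.933 to 1.10. In replicate 1 the odds ratio was 1.12 (0.990 to 1.28) within score deciles. It was 1.00 when both lists were cut to summits at or above their own median score, so that partners also had to reach it. These values are a description with no test: having a partner is part of how the regions were chosen, and the summits of a list share a library, so the intervals cover counting error only. First-intron summits inside repeats, which were left out, had a partner in 65.7% of 1236 cases in replicate 1 and 49.6% of 1632 in replicate 2.

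**Figure D2:**
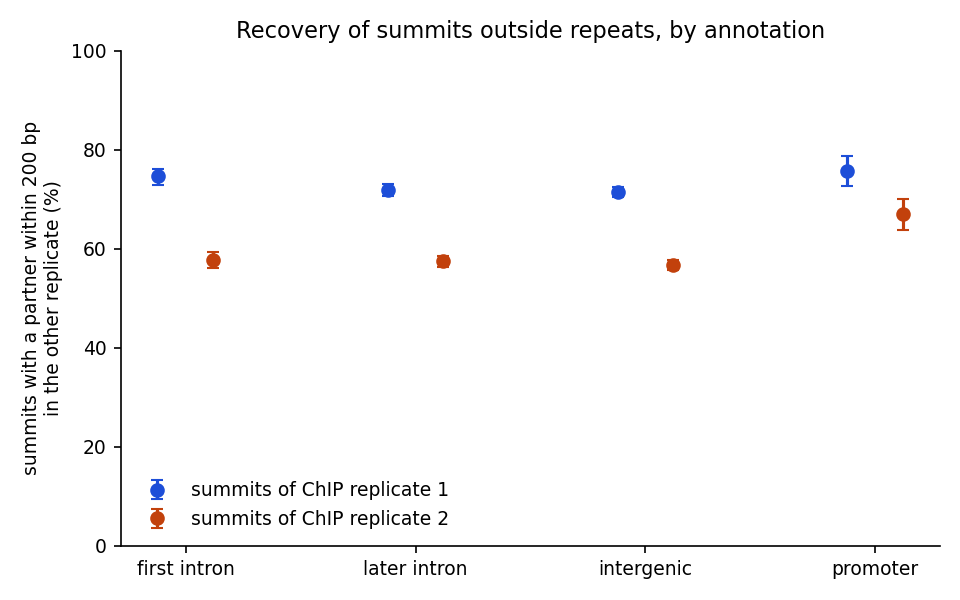
Percentage of summits outside repeats with a partner within 200 bp in the other replicate (y axis), by annotation class (x axis) and list (colour), with 95% Wilson intervals. First introns reach 74.6% in replicate 1 and 57.7% in replicate 2, and the intervals of first and later introns overlap in both lists.

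First-intron summits outside repeats made up 8.65% ± 0.246 of a list (SD, n = 2), and first introns held 31.1% of all intronic summits in replicate 1 and 31.6% in replicate 2. By definition a first intron follows the first exon of its transcript, so the classes themselves lead to different distances from a start. The 2053 regions lay closer to a start site than those in later introns or between genes. The median distance to the nearest start was 15498 bp with quartiles of 6048 and 37998 bp, against medians of 44736 bp in later introns and 53553 bp in intergenic sequence. Still, only 764 (37.2%, 35.1% to 39.3%) were within 10 kb and 248 (12.1%) within 2 kb, while 116 (5.65%) were beyond 100 kb. The nearest start lay upstream of the summit for 1669 regions (81.3%) and downstream for 384 (18.7%). For 144 of those 384 the nearest start was one of the host gene itself.

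Among genes whose own start was the nearest, the closest sites were 113 bp from a start of ACSL1, a fatty acid activating enzyme, with scores of 14.1 and 7.55, and 178 bp from a start of PTPRD, a receptor tyrosine phosphatase, with 75.2 and 117.9. The others were in MAGED1 at 125 bp, SNHG26 at 173 bp and LINC02026 at 181 bp. The farthest was in CDH12, a neural cadherin, 312362 bp from its start, with scores of 12.4 and 13.9. CSMD1 at 278660 bp, KCND2 at 277002 bp, PPARGC1A at 260575 bp and RORA at 242549 bp came next. The KCND2 site, in a potassium channel gene, had the highest scores of these 5 in both lists, at 32.0 and 91.8. Over 8 distance bins the median percentile of members did not change steadily. In replicate 1 it was 66.9 within 1 kb, 69.6 between 1 and 2 kb and 71.2 between 2 and 5 kb. Farther out it was 63.6 up to 10 kb, 66.1 up to 20 kb, 63.6 up to 50 kb, 65.5 up to 100 kb and 57.6 beyond. Each bin within 5 kb was thus above each bin farther out. The values of the 8 bins in replicate 2 were 71.4, 77.1, 79.8, 72.5, 75.1, 72.7, 74.5 and 69.6. There the bin within 1 kb was below several bins farther out.

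**Figure D3:**
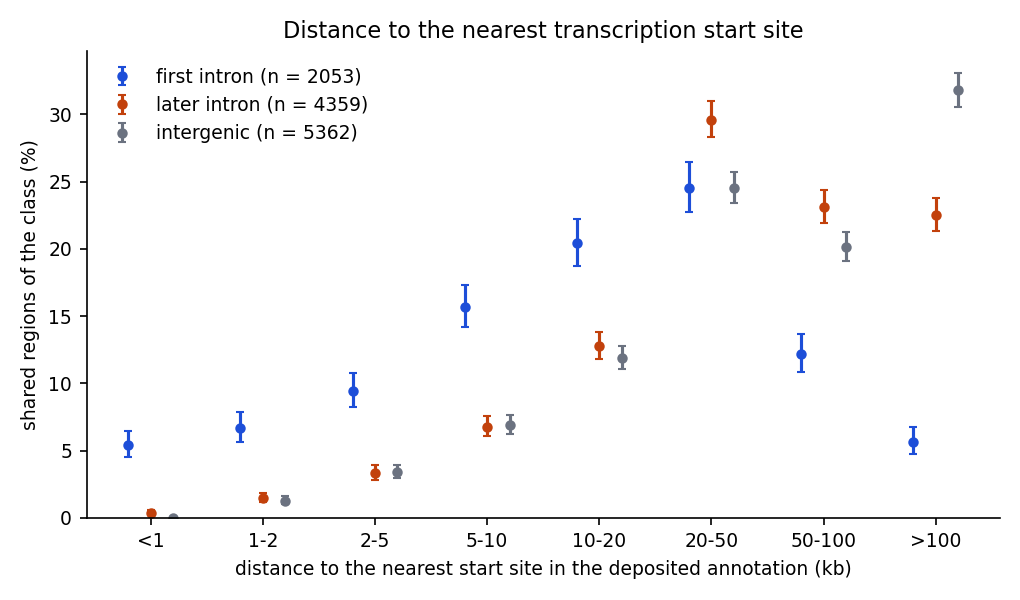
Percentage of shared non-repeat regions of each class (y axis) by distance to the nearest start site in the deposited annotation (x axis, kb), with 95% Wilson intervals, for first introns, later introns and intergenic sequence. First introns exceed the other classes in each bin up to 20 kb and fall to 5.65% beyond 100 kb.

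CpG islands, the GC-rich stretches at many vertebrate promoters, held 57 members (2.78%, 2.15% to 3.58%), against 29 of 4359 later-intron regions (0.665%, 0.464% to 0.954%). Of the 57, 50 were within 2 kb of a start. Their median percentile was 74.8 in replicate 1 and 79.4 in replicate 2, and that of the 198 members within 2 kb but outside islands was 66.8 and 74.9. The islands included those of PLD1, a phospholipase, with scores of 120.1 and 146.4, and of FOXO1, a transcription factor restrained by AKT, with 71.5 and 57.1. That of DUSP16, a phosphatase of stress-activated MAP kinases, scored 98.2 and 118.0. PLD1, FOXO1 and DUSP16 were chosen after their values were seen.

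The gene that holds a first-intron site often differed in name from the gene with the nearest start. A gene name was found for the intron-holding transcript of 2047 regions, in 1354 genes. Host and nearest gene had the same symbol for 1621 regions (79.0%) and not for 432, which include the 6 with no host name. Most host symbols came from RefSeq and the nearest ones from the deposited lists, so a gene with different names there counts among the 432. For the CHN2-AS1 site the deposited lists named LOC102724484 at 433 bp, where RefSeq has a start of CHN2-AS1 itself. The 432 may therefore be too high. In 299 of the 432 the nearest start belonged to a gene that the deposited annotation types as ncRNA, as in RASSF3, where the strongest site was assigned to MIR548Z. In a further 8 it belonged to a snoRNA gene, and in 112 to a gene typed as protein-coding. The E2F3 site on chromosome 6 (summits at 20479674 and 20479622, scores 278.7 and 385.1) was assigned to CDKAL1, whose start is 54783 bp away. Non-coding transcripts held 367 regions (17.9%), and 105 regions were in transcripts with 1 intron, in which a first intron is also the last.

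Some genes held several sites in their first introns. Of the 1354 genes, 984 held 1 region and 370 held 2 or more, which together carried 1063 regions. These counts are by gene, not by intron. Regions of a gene can lie in first introns of different transcripts, as in ZNRF3 and NAV2, with 2 transcripts each. TRIO, a guanine nucleotide exchange factor of small GTPases, held 14, the highest number, spread over 118582 bp of intron 1 of 56. They ran from 6516 to 125098 bp from the gene's outermost start. The strongest TRIO site, on chromosome 5 with summits at 14228458 and 14228450, had scores of 370.3 and 490.0. The next sites had 134.0 and 164.1, and 74.4 and 172.3. The median TRIO score was 23.1 in replicate 1 and 24.5 in replicate 2, and the lowest scores were 2.52 and 3.65.

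PTPRJ, a receptor tyrosine phosphatase that opposes growth factor receptors, and ZNRF3, a ubiquitin ligase that removes Wnt receptors, held 10 each. The PTPRJ sites peaked at 81.5 in replicate 1 and 77.9 in replicate 2, and those of ZNRF3 at 53.1 and 107.0. GAB2, a docking protein of receptor tyrosine kinase signalling that is amplified in some melanomas, held 9, of which 3 were in the top 10% of both lists, with a highest score of 222.4 and 350.2. SEMA5A, a guidance cue, held 9 with 1 strong site (160.5 and 215.8). NAV2 and LSAMP, both of neurite growth, and ST6GALNAC3, a sialyltransferase, held 9 each, with highest replicate 1 scores of 84.6, 52.0 and 59.1. Of these 8 genes, the sites of NAV2 began only 130296 bp from its outermost start, whereas those of PTPRJ, ST6GALNAC3 and TRIO began within 8 kb.

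**Figure D4:**
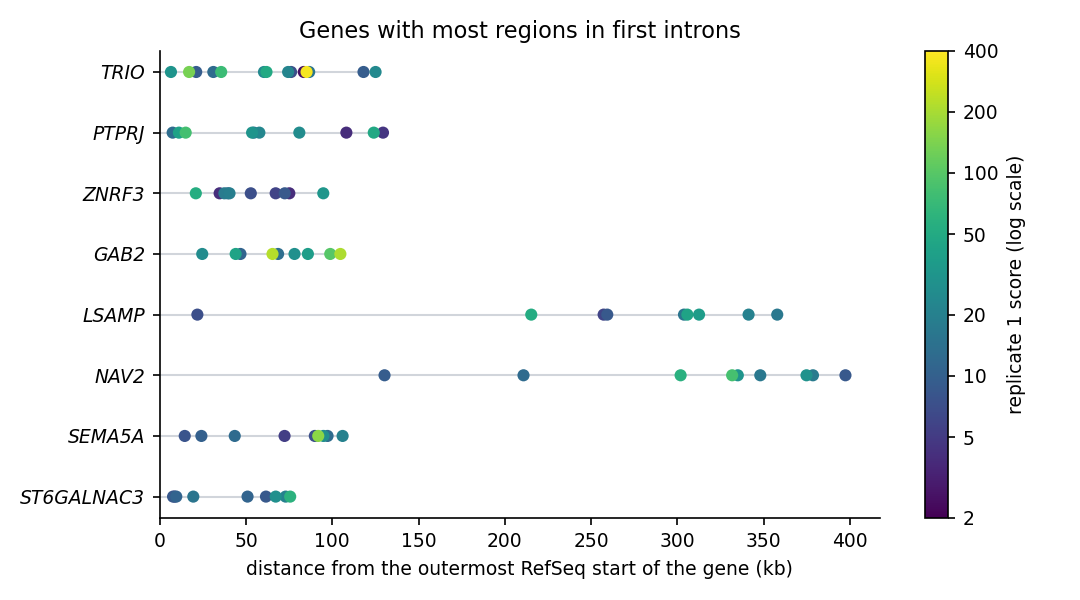
Position of each first-intron region (point) in the 8 genes with 9 or more of them, as distance from the outermost RefSeq start of the gene in kb (x axis, to scale), coloured by replicate 1 score on a log scale. TRIO shows 14 points over 118582 bp with 1 score of 370.3, and the NAV2 points begin 130296 bp from the start.

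Of 19974 protein-coding genes on chromosomes 1 to 22 and X, 1119 held at least 1 member in a first intron, 5.60%. Long genes held them far more often, from 0.768% of genes up to 20 kb to 27.8% of those over 300 kb, and 19.5% of all genes over 100 kb did. The median length of genes with a member was 122590 bp, against 24171 bp of all protein-coding genes. The lists below are therefore given with the share of their genes over 100 kb, and were not tested. Of the 1119 genes, 79 also had a shared region at a promoter (7.06%, 5.70% to 8.71%), against 1.98% of all protein-coding genes. Promoter regions were assigned to the gene of the nearest start. No promoter share was computed for genes of like length, so this difference is not matched for length and was not tested.

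Where 1 position is named for a site it is the replicate 1 summit. A gene said to hold none had no region of this set. Sites at its promoter, in later introns, in repeats or around the gene were not counted, nor was the length of its first intron considered. Pigment enzymes and melanosome proteins had a member in 9 of 31 genes (29.0%), and in 5 of the 12 over 100 kb. In the replicate 2 list alone, without the demand for a partner, 14 did. RAB27A, the GTPase that ties melanosomes to the actin motor, had the strongest, on chromosome 15 at 55267531 and 55267540, 2755 bp from a start, with scores of 245.5 in replicate 1 and 259.4 in replicate 2. HPS4, part of a complex for lysosome-related organelles, had one at 26482355 on chromosome 22, 1508 bp from its start (36.4 and 49.8). The site in TYR, tyrosinase, the first enzyme of melanin synthesis, was at 89182895 and 89182946 on chromosome 11, 5023 bp from the start (40.6 and 44.2). RAB38, which directs tyrosinase to melanosomes, had one with both summits at 88152598 on chromosome 11 (29.0 and 57.1). The remaining 5 were HPS5, MYO5A with 2 regions, SLC7A11, PMEL and DCT. In the cystine transporter gene SLC7A11 the site was 861 bp from the start (32.1 and 28.0), and in DCT, a melanin pathway enzyme, scores were low (4.50 and 12.2).

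Receptors and ligands of melanocytes had members in 6 of 19 genes (31.6%, 4 of the 6 over 100 kb), all of them receptors apart from the ligand NRG1. In the replicate 1 list alone 10 genes had a site. EGFR scored 103.6 and 144.0, on chromosome 7 at 55086703. The endothelin receptor EDNRB, needed for melanocyte development, had 2 regions, the stronger on chromosome 13 at 77969503 with 62.8 and 70.8. ERBB3, a neuregulin receptor, had 2 within 3047 bp of its start, the stronger on chromosome 12 at 56083155 with 47.3 and 88.3. MET, the hepatocyte growth factor receptor, had a site on chromosome 7 at 116687888 with 19.3 and 36.4, and ERBB4 was the last. MC1R, KIT and ASIP held none.

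Melanocyte and neural crest transcription factors had members in 4 of 34 genes (11.8%, 4 of the 11 over 100 kb): SOX6, MITF, ETS1 and ZEB2. The replicate 2 list alone had sites in 8. MITF, the central regulator of the lineage, had 3 regions in first introns of different transcripts, the strongest at 69748044 and 69748096 on chromosome 3 (38.4 and 65.7). The 3 lay between 8580 and 51780 bp from the outermost start of the gene, which is 228869 bp long. Which MITF isoform they might serve was not tested. ETS1 (chromosome 11, 128583179) scored 35.2 and 30.0, and ZEB2 (chromosome 2, 144518539), a zinc finger repressor of the neural crest, 13.3 and 21.1. SOX10, PAX3 and TFAP2A, and also TBX3 itself and TBX2, held none.

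Adhesion genes had members in 10 of 29 (34.5%, 6 of the 16 over 100 kb). After CTNND1 came 2 integrin genes and a cadherin. ITGA9 had 3 regions, the strongest on chromosome 3 at 37456498 with 165.1 and 219.9. CDH11 had a site on chromosome 16 at 65059604 with 126.8 and 202.8, and the laminin receptor subunit ITGA6 had one on chromosome 2 at 172460858 with 84.3 and 202.8. E-cadherin (CDH1) held none in a first intron, and sites elsewhere at CDH1 were not counted here.

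The cAMP pathway, which carries the MC1R signal inside the melanocyte, had members in 12 of 41 genes (29.3%, 12 of the 31 over 100 kb). After PRKAR1A, the phosphodiesterase PDE4B, which breaks down cAMP, had 8 regions, the strongest at 66350314 and 66350305 on chromosome 1 with 304.0 and 463.8, and the second with 239.0 and 321.4. The kinase anchor AKAP13 had a site on chromosome 15 at 85413690 with 211.6 and 307.5, and the salt-inducible kinase SIK3, which holds back the CREB coactivators, had one on chromosome 11 at 117037518 with 98.9 and 209.2. Axon guidance genes had members in 11 of 36 (30.6%, 11 of the 30 over 100 kb). EPHA5, an ephrin receptor, had a site on chromosome 4 at 65668349 with 201.0 and 253.4 at 1139 bp from a start. UNC5D, a netrin receptor, had one on chromosome 8 at 35544990 with 81.7 and 215.6, and NRP2, a semaphorin co-receptor, one on chromosome 2 at 205689048 with 73.0 and 137.5.

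The MAPK and PI3K list had 6 of 34 (17.6%, 6 of the 17 over 100 kb), led by RASSF3, with 8 regions and a strongest site on chromosome 12 at 64679899 with 174.7 and 280.7. The Ras pathway inhibitor SPRED1 had one on chromosome 15 at 38254741 with 32.2 and 34.8, and the Ras activator RASGRP3 one on chromosome 2 at 33445117 with 15.8 and 67.0. BRAF and NRAS held none. The TGF-beta and BMP list had 5 of 30 (16.7%, 5 of the 12 over 100 kb): BMPR1B, a BMP receptor (chromosome 4, 94802233, with 38.4 and 65.7), SMAD3, a signal transducer (chromosome 15, 67150178, with 40.6 and 30.0), the ubiquitin ligase SMURF1 (chromosome 7, 99125596, with 14.9 and 17.4), the ligand BMP6 (chromosome 6, 7829731, with 7.13 and 11.4) and ACVR1. The Wnt list had 4 of 36 (11.1%, 2 of the 13 over 100 kb): ROR1 (chromosome 1, 63852512, with 119.7 and 238.4), the ligand WNT7B (chromosome 22, 45966723, with 85.8 and 107.6), ROR2 (chromosome 9, 91798335, with 10.8 and 40.6) and the ligand WNT5B (chromosome 12, 1622984, with 8.16 and 10.6), which include both ROR receptors for WNT5A.

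Chromatin regulators had members in 6 of 37 genes (16.2%, 4 of the 23 over 100 kb, below the 19.5% of all genes of that length). EZH2, the methyltransferase of the Polycomb complex, had the strongest (chromosome 7, 148863842, with 132.5 and 288.7), followed by the SWI/SNF subunits ARID1A (chromosome 1, 26723621, with 55.8 and 57.0) and ARID1B (chromosome 6, 156809280, with 26.0 and 63.3) and the acetyltransferase KAT2B (chromosome 3, 20041570, with 65.9 and 25.3). Cell cycle and survival genes had 2 of 31 (6.45%, 1.79% to 20.7%, 0 of the 5 over 100 kb), near the 5.60% of all protein-coding genes, and 4 in the replicate 2 list alone. They were E2F3, given above, and BCL2L1, which encodes the survival protein BCL-XL and had 3 regions, the strongest on chromosome 20 at 31675569 with 53.9 and 72.5. All 3 were in the first intron of a non-coding BCL2L1 transcript with 2 introns. Their nearest starts were those of COX4I2 or ABALON, not of BCL2L1. Most genes of this list are short, with a median of 13890 bp.

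**Figure D5:**
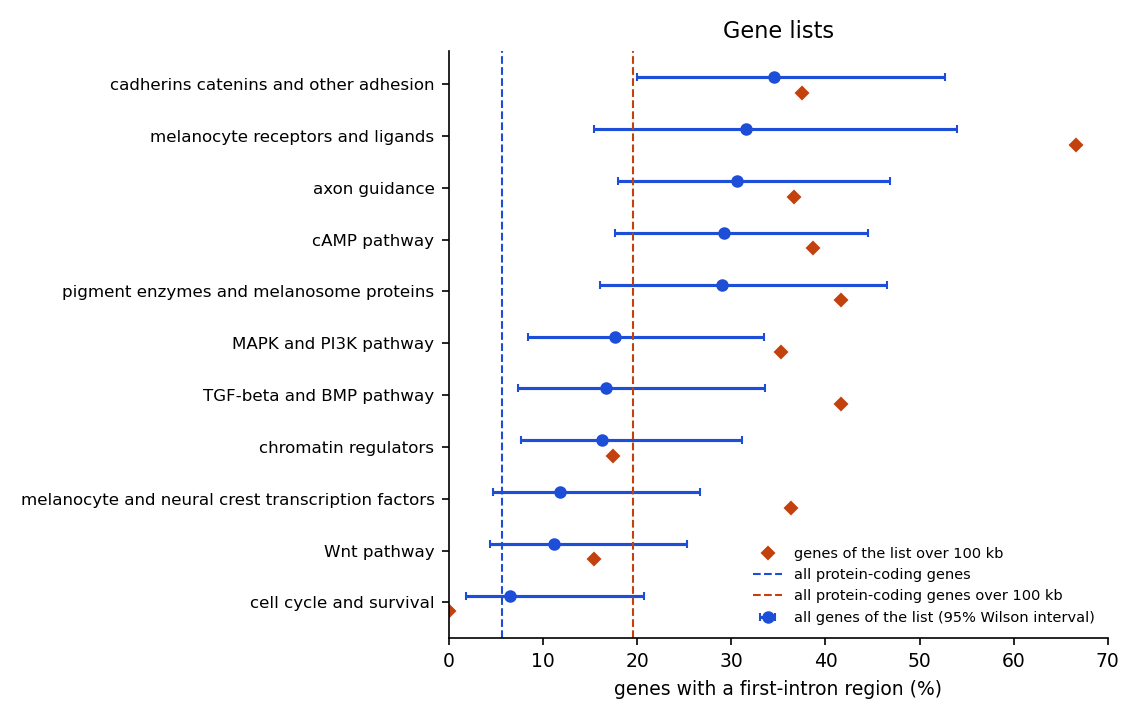
Percentage of the genes of each list described here with a first-intron region (x axis), for all genes of the list (blue points, 95% Wilson intervals) and for those over 100 kb (orange diamonds). Dashed lines give all protein-coding genes, 5.60%, and those over 100 kb, 19.5%; of the lists drawn, adhesion is highest for all genes at 34.5%.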

How the data were processed

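ChIP-seq summits of 2 ChIP replicates were used. Per the submitters' processing notes FastQC 0.11.7, cutadapt 2.8, Bowtie2 2.3.5, MACS2 2.1.2 and SAMtools 1.9 were used with build hg38. Per the file headers, the summits of each sample were annotated with annotatePeaks.pl against hg38. The peak control and threshold are not given in the sources used here. Each score is as the authors deposited it; its scale is not stated and it was used only within a list. Read depth is unknown. Intervals cover counting error only.

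With Python 3.11.15, pandas 2.3.3 and scipy 1.17.1, summits were paired when mutually nearest within 200 bp. Intron-holding transcripts were matched to symbols through the RefSeq table of GRCh38.p14 (2031 of 2053) or, failing that, the names the deposited lists pair with them. The members and the 12 gene lists were chosen with earlier results of these data known. Named were the 10 lowest rank sums, up to 4 genes a list, the 6 genes with most members and ties, and the 5 closest and 5 farthest sites. The remaining list genes, the genes at RefSeq starts, and those named as holding no member are outside this rule and were chosen after their values were seen. No genome was used, so motifs were searched in RefSeq start windows only, not at all summits as planned. Pairing and odds ratios were tested on simulated data. The result of 1 list and of single genes is not reported here. Fisher's exact test of partner shares was planned, but having a partner belongs to the selection and summits are not samples, so no p-value is given.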

Additional observations from a re-analysis of the deposited data

How the results depend on the processing

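No paired analysis was possible because the files used hold peak lists of the ChIP samples only, which form 1 group, so there is no second group of values to pair with them. Of 249 alternative values, 219 kept their direction and side of the threshold or stayed within the interval or 1.5 times of the value given. The number of regions was 1338 with scores at or above the median in both lists, and ran from 2752 to 3572 without a partner in 1 replicate. The median replicate 1 percentile was 70.9 with pairing within 50 bp, 67.3 within 100 bp and 78.1 above the median score, and without a partner the median percentile in a single list ran from 53.4 to 55.2. The median distance to a start was 14043 bp where host and nearest gene agreed. With scores at or above the median the axon guidance list had 7 genes, the TGF-beta and BMP list 3 and the Wnt list 2, and the cell cycle list had 1 with pairing within 50 bp and 0 by nearest start. The odds ratio of first-intron recovery in replicate 1 was 1.00 with both lists cut to scores at or above their medians. It was 1.12 within score deciles, against 1.15 as given. In replicate 2 it was 1.01 as given, 0.994 with pairing within 500 bp and 0.923 with both lists cut in that way. Within score deciles it was 0.933 and within distance bins 0.970, the last chosen after seeing the data. The cause was not tested, except that higher scores, smaller pairing distances and single lists by construction change which summits enter. Motifs within 50 bp of the summit were not run, since no genome was used.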
